A study of Mus musculus with 6 samples.

Results

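The 7 genes described here, *Pnoc*, *Penk*, *Gal*, *Npy*, *Tac1*, *Grp* and *Erfe*, encode precursors of neuropeptides or, for *Erfe*, a secreted hormone. They were chosen by name, with their levels in these cells and their differences between genotypes already known, and they are 7 of the 16494 genes in the table. Every level and genotype difference of these 7 genes is therefore given as a description, with no test. The cells came from lower abdominal muscle (LAM) of male FVB/N mice aged 9-10 weeks, 3 wild-type (WT) and 3 Aromhum. Aromhum mice carry the human aromatase gene *CYP19A1*, whose enzyme makes estrogen from androgen, under its own tissue-specific human promoters, and they are labelled with a scrotal hernia. On each of 3 dates a WT mouse and an Aromhum littermate were processed. Minced muscle was digested with collagenase and dispase, and a 40 µm filter took out multinucleated cells, so mature muscle fibers were for the most part not sampled.

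Neuropeptides are cut from longer precursors, stored in vesicles and sensed mostly by G protein-coupled receptors. *Pnoc* encodes the precursor of nociceptin and *Penk* that of the enkephalins, both of the opioid family. *Gal* encodes galanin, *Npy* neuropeptide Y, *Tac1* substance P and neurokinin A, and *Grp* gastrin-releasing peptide. In muscle these peptides are best known from nerve endings. *Erfe* encodes erythroferrone, also called myonectin, a member of the C1q/TNF-related family that binds bone morphogenetic proteins (BMPs) and lowers hepcidin, the liver hormone that limits iron release.

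All 6 libraries together held 63647 barcodes and between 64958237 and 111826460 unique molecular identifiers (UMIs, 1 per captured RNA molecule) per mouse. Median UMIs per barcode were 4728.5 to 5897 in WT and 6673 to 8727 in Aromhum libraries. *CYP19A1* had 0 UMIs in each WT library and 770, 797 and 787 in the Aromhum libraries. A barcode sequence occurred in more than 1 library 471 times. The table carries the cells in 30 groups by column order, and each group was named from marker genes. UMIs were summed per mouse and group and are given as counts per 1000000 summed UMIs (CPM). 27 groups had at least 20 cells in every mouse. The groups are taken to come from these same counts, so a high level of a leading gene in its group is no separate finding. *Pnoc* and *Erfe* are among the 10 leading genes of group 10, *Gal* of group 11 and *Grp* of groups 7 and 15. *Gal* and *Npy* are also among the leading genes of group 30, which has 64 cells and is not ranked here.

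The 7 genes were divided between a few cell groups, ranked here among the 27 groups with at least 20 cells in every mouse. *Pnoc* was highest in group 10, fibroblast-like cells high in *Esr1*, the estrogen receptor gene. *Penk* was highest in a small fibroblast-like group with *Apod* and *Dlk1* (group 24) and in the large fibroblast-like group (group 8). *Tac1* was highest in tenocyte-like cells (group 3), and *Grp* in both groups of myelinating Schwann-like cells (groups 7 and 15). *Gal* and *Npy* were highest in muscle stem cell-like and myoblast-like cells (group 11), as was *Erfe* in WT mice, while in Aromhum mice *Erfe* was higher in group 10. As a check for neurons, the CPM of 9 measured neuronal markers were summed within each mouse. Over the 6 mice this sum ranged from 5.41 to 22.6 CPM in group 11 and from 6.86 to 32.8 CPM in group 3. It ranged from 19.3 to 32.9 CPM in group 24 and from 43.0 to 70.9 CPM in group 7, and group 15 was not checked. In group 10 the sum was 20.5 to 45.2 CPM in WT and 7.44 to 12.3 CPM in Aromhum mice, and in group 8 it was 59.5 to 98.1 CPM in WT and 24.8 to 66.3 CPM in Aromhum mice. In groups 11, 3, 24, 7, 10 and 8, in this order, 3, 3, 5, 2, 1 and 1 of the 9 markers were at 0 in every mouse.

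**Figure D1:**
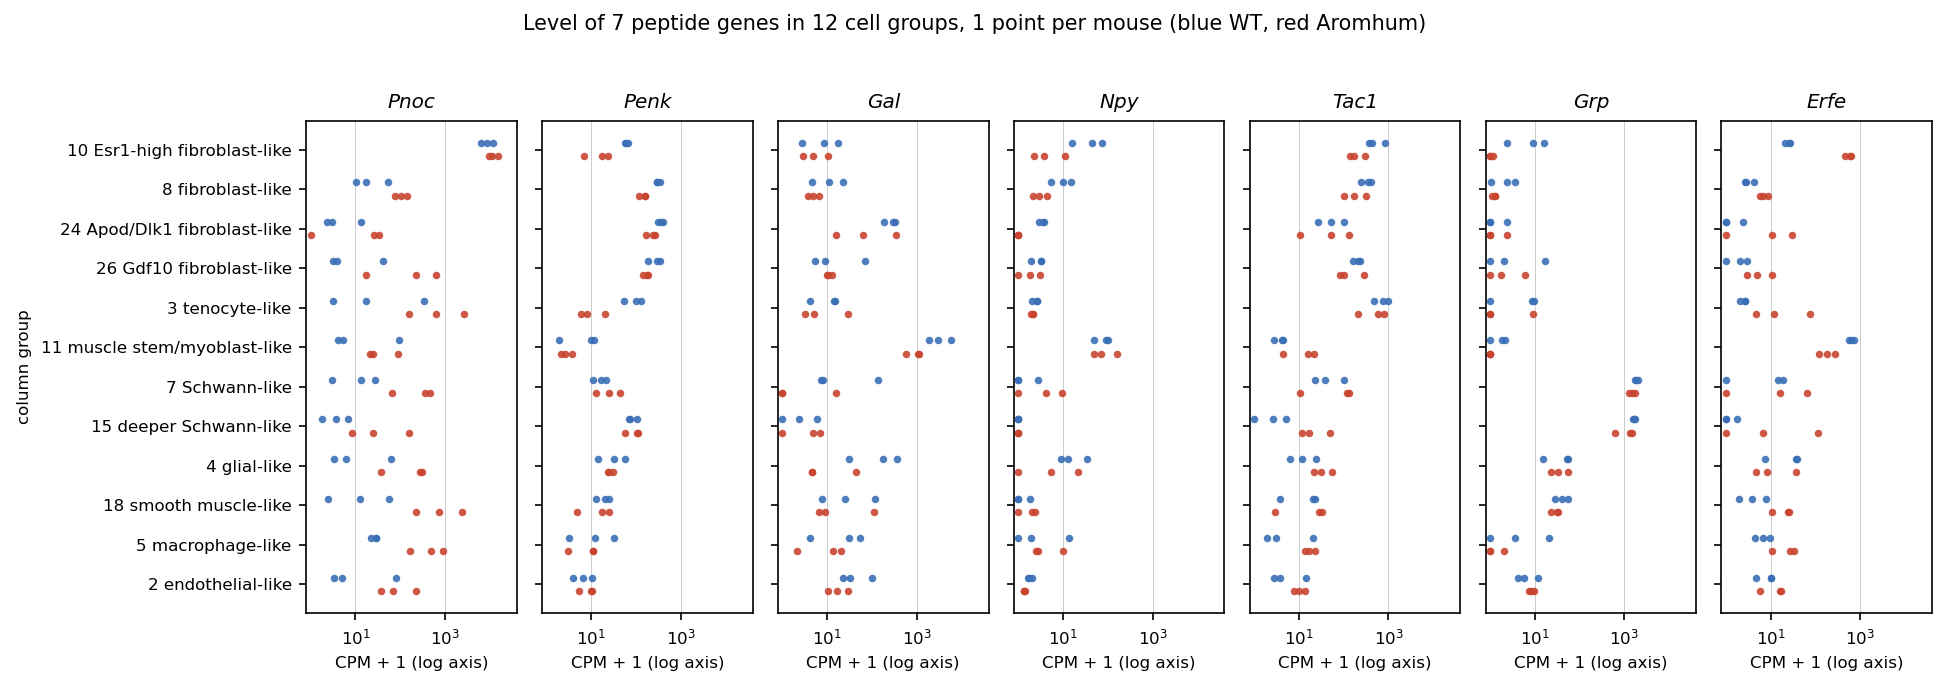
Level of each peptide gene in 12 cell groups, as CPM + 1 on a log axis, with 1 point per mouse, WT in blue and Aromhum in red. *Pnoc* peaks in group 10, *Gal* and *Npy* in group 11, *Grp* in groups 7 and 15, and *Erfe* has its red points high in group 10 (457 to 624 CPM) and its blue points high in group 11 (558 to 736 CPM).

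In the mouse genome (GRCm38) the loci of 6 of the 7 protein-coding genes are given here. They are *Pnoc* at chr14:65400673-65425472 (minus strand), *Penk* at chr4:4133531-4138819 (minus strand), *Gal* at chr19:3409915-3414544 (minus strand), *Npy* at chr6:49822710-49829507 (plus strand), *Tac1* at chr6:7554879-7565834 (plus strand) and *Erfe* at chr1:91366430-91374217 (plus strand). RefSeq promoter entries were matched for 4 of the 7 genes. The 250 bases before the start are shown for *Erfe* and *Gal*, whose levels differed several-fold within a cell group, and for *Npy*, which shares group 11 with them and overlapped there. The fourth, that of *Tac1*, is not shown, since its RefSeq start lies inside the gene coordinates above. They are written 5′ to 3′ on the strand of the gene (RefSeq, GRCm38.p6), and capitals mark a match to GGTCA or TGACG on either strand. GGTCANNNTGACC, the palindromic estrogen response element, was in 0 of these windows and in 0.0639% of all 32851 windows of this length. GGTCA, a single arm of it, was found 1 time, in *Gal*, and is in 35.2% of all windows. TGACGTCA, the cyclic AMP response element, and its shorter part TGACG were in 0 of the shown windows and in 1.55% and 17.8% of all, and the E-box CANNTG in 0 and 66.2%. In the *Tac1* window TGACG and CANNTG were each found 2 times, and GGTCA and TGACGTCA 0 times. A match says only that the letters occur.
Erfe, chr1:91366180-91366429, plus strand: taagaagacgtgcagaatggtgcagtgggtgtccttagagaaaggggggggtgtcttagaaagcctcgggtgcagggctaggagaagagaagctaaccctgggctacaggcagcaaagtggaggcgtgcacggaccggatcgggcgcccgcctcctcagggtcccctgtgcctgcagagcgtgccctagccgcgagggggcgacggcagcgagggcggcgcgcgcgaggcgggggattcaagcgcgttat
Gal, chr19:3414545-3414794, minus strand: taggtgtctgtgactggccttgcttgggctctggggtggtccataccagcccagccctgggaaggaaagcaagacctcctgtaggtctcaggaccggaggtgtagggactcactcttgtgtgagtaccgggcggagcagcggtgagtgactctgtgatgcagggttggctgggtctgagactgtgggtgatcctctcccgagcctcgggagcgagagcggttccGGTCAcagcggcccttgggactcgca
Npy, chr6:49822460-49822709, plus strand: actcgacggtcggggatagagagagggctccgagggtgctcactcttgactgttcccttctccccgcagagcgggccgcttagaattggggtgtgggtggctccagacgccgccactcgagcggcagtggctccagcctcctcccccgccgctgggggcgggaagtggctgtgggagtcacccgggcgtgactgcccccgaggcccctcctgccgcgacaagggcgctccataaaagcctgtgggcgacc

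*Erfe* went in opposite directions in 2 cell groups. In the muscle stem cell-like and myoblast-like cells its level was 558, 618 and 736 CPM in WT and 185, 121 and 272 CPM in Aromhum mice. All 3 Aromhum mice lay below all 3 WT mice. The log2 fold change of Aromhum over WT was -1.81 (SE 0.29), or 3.51-fold lower. In the *Esr1*-high fibroblast-like cells *Erfe* was at 26.6, 25.01 and 19.6 CPM in WT and at 624, 457 and 581 CPM in Aromhum mice. Here every Aromhum mouse lay far above every WT mouse, with no overlap. The log2 fold change was 4.53 (SE 0.20), or 23.04-fold higher. With the study's own limits on cells it was 2.93.

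The group that held most *Erfe* UMIs also differed by genotype, and such a share depends on level, cell number and depth. Group 11 held 77.4% ± 2.02 (SD, n = 3) of all *Erfe* UMIs in WT mice and 3.00% ± 1.71 in Aromhum mice. Group 10 held 5.14% ± 4.58 in WT and 90.6% ± 1.11 in Aromhum mice. Group 11 made up 5.70% ± 0.95 of WT and 3.59% ± 0.67 of Aromhum cells, and group 10 made up 3.13% ± 1.43 and 10.7% ± 2.38. The part of cell number in these shares was not tested. Over all barcodes, *Erfe* was at 22.6, 36.4 and 33.3 CPM in WT and at 161, 125 and 109.9 CPM in Aromhum mice. Without group 10 the same sums were 22.2, 37.0 and 33.8 CPM in WT and 17.3, 16.2 and 13.7 CPM in Aromhum mice. The ratio of Aromhum to WT means thus passed from 4.28 to 0.508 when that 1 group was left out, and in neither case did the genotypes overlap. Among all 15663 genes with at least 60 UMIs, 22.3% were higher and 22.4% lower in Aromhum mice with no overlap over all barcodes.

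The share of cells with an *Erfe* UMI moved the same way. In group 10 it was on average 12.6% in WT and 64.3% in Aromhum mice, at median depths of 10894.5 and 16203 UMIs. After each cell was thinned to 1000 UMIs the shares were 1.80% and 28.4%. In group 11 they were 66.3% and 34.7% before and 38.8% and 15.1% after thinning. In capillary endothelial-like cells (group 2), which should lack the gene, the shares were 2.05% in WT and 1.85% in Aromhum mice, at median depths of 5314 and 3890.5 UMIs. The WT share in group 10 was 2.69%, 1.55% and 1.16% per mouse after thinning, against 0.247%, 0.507% and 0.370% in group 2. Single cells carried up to 12 *Erfe* UMIs in group 10 of WT mice and up to 225 in Aromhum mice. The median Aromhum cell carried 3, 2 and 3 UMIs in the 3 mice, and the top 10% of cells held 50.4% to 52.5% of the *Erfe* UMIs.

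*Erfe* and *Pnoc* were also compared cell by cell within group 10. In Aromhum mice, after thinning, 39.3% ± 5.63 of cells with *Pnoc* and 12.6% ± 0.868 of those without it had an *Erfe* UMI. In WT mice these shares were 2.52% ± 0.749 and 0.690% ± 1.19. The share was higher in cells with *Pnoc* in each of the 3 Aromhum mice (45.1% against 12.1%, 33.9% against 13.6% and 38.9% against 12.04%), while the WT shares are too low to be read. In group 11 the thinned share with *Erfe* was 41.5% in WT cells with *Gal* and 34.9% in those without, and 15.1% in both kinds of Aromhum cell.

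Outside groups 10 and 11, low *Erfe* levels were higher in Aromhum mice without overlap in 4 groups, which were group 5 (macrophage-like), group 8, group 12 (unnamed, spermatid genes) and group 29 (unnamed, cell division genes). The log2 fold changes were 2.01 in group 5, 1.51 (SE 0.32) in group 8 and 2.00 in group 29, and the levels in these 3 groups were at most 89.1 CPM. In group 8 *Erfe* rested on 127 UMIs in WT and 677 in Aromhum mice. Group 12 had 0 *Erfe* UMIs in WT and 71 in Aromhum mice, which is at least 22.7-fold higher against a floor of 3 counts over the group. *Erfe* passed the filter there through the Aromhum mice, so nothing is read from this value. *Pnoc* was also higher with no overlap in groups 5, 8 and 29, and the part of RNA from group 10 cells in these low levels was not tested. In all, 5 of the 11 groups in which *Erfe* passed the filter were higher in Aromhum mice without overlap and 1 was lower. The matching background in group 10 is 19.9% of 12188 genes higher and 16.1% lower, and in group 11 it is 17.6% of 8435 genes higher and 9.51% lower. For genes higher in Aromhum mice it is 5.02% in group 5, 13.4% in group 8, 18.1% in group 12 and 14% in group 29. Nothing is read from these counts, since the genes were chosen on this contrast.

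**Figure D2:**
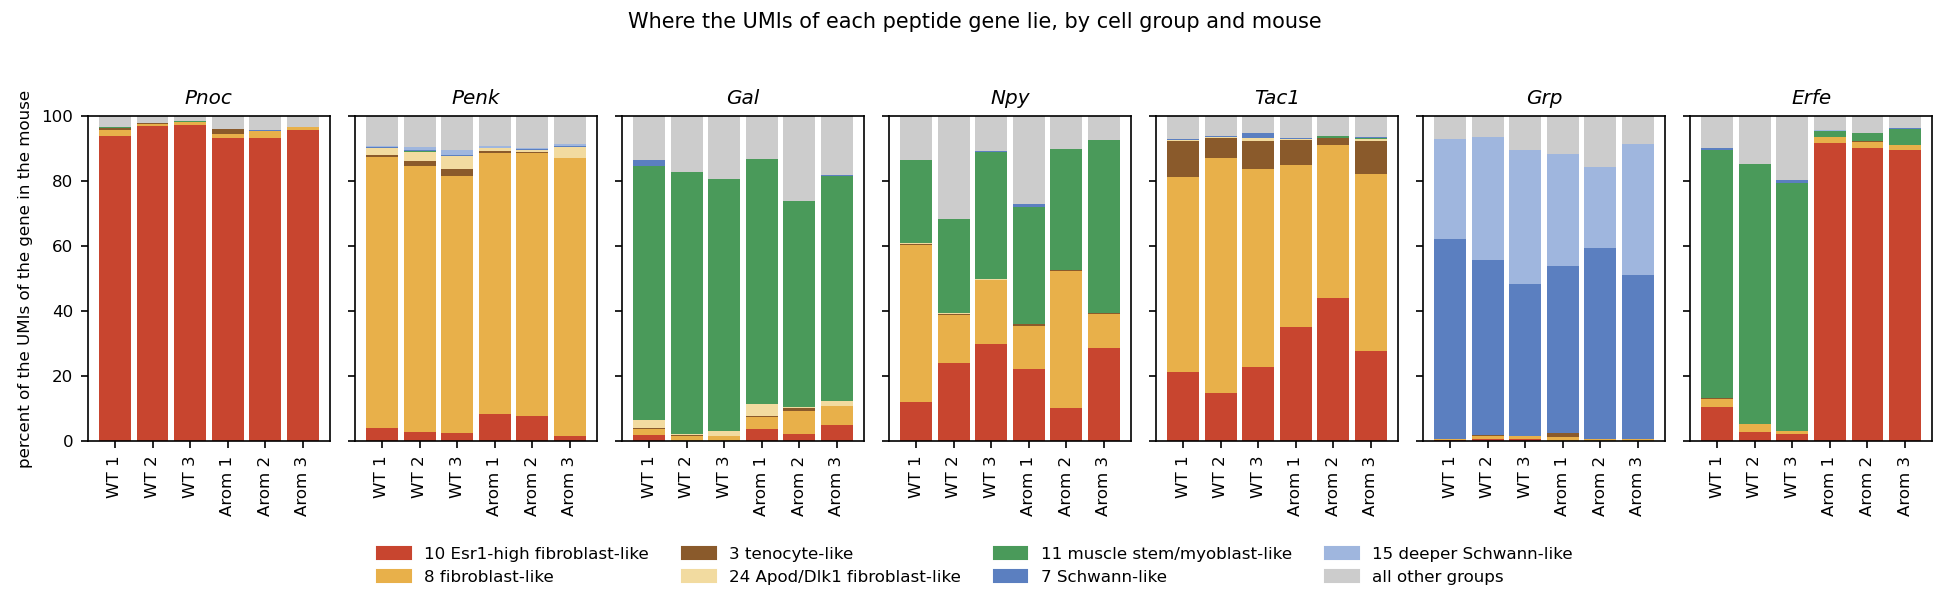
Percent of the UMIs of each peptide gene that lie in 7 named cell groups or in all other groups, 1 bar per mouse. The *Erfe* bars are mainly group 11 (green) in the 3 WT mice and mainly group 10 (red) in the 3 Aromhum mice, while the *Pnoc* bars are nearly all group 10 in all 6.

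*Pnoc*, the nociceptin precursor, was largely a gene of group 10 in both genotypes. Its level there was 11746, 6405 and 8664 CPM in WT and 11409.8, 9691 and 15485 CPM in Aromhum mice. The genotypes overlapped, and the log2 fold change was 0.43 (SE 0.27). Group 10 held 96.0% ± 1.83 of *Pnoc* UMIs in WT and 94.1% ± 1.37 in Aromhum mice. Over all barcodes *Pnoc* was at 1103, 283 and 315 CPM in WT and at 2891, 2562 and 2746 CPM in Aromhum mice, so the lowest Aromhum mouse lay above the highest WT mouse. Group 10 made up 3.13% ± 1.43 of WT and 10.7% ± 2.38 of Aromhum cells, and the cell number moved with the sum over all barcodes. Without group 10 *Pnoc* was at 73.7, 9.39 and 8.94 CPM in WT and at 254, 229 and 144 CPM in Aromhum mice, again without overlap.

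Cells of group 10 differed widely in *Pnoc*. The median cell had 58, 8 and 40 UMIs in WT mice and 19, 47 and 108 in Aromhum mice, and the highest cell had 3552. From 16.2% to 34.2% of the cells of a mouse had no *Pnoc* UMI, although the median cell of the group had 15028.5 UMIs in all. The share of cells with *Pnoc* was 76.8% in WT and 76.7% in Aromhum mice, and 64.4% and 59.5% after thinning. The top 10% of cells held 45.8% to 60.9% of the *Pnoc* of a mouse.

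Outside group 10, *Pnoc* was low, and where the genotypes did not overlap it was higher in Aromhum mice. In the capillary endothelial-like cells its share of cells with a UMI was 3.00% in WT and 14.5% in Aromhum mice, and 0.602% and 3.91% after thinning. Of 23 groups in which it passed the filter, 13 overlapped, 10 were higher in Aromhum mice without overlap and 0 lower. The 10 were groups 1, 5, 6, 7, 8, 18, 20, 21, 25 and 29. In groups 1, 6, 7, 21 and 29 *Pnoc* had 25, 6, 33, 10 and 4 UMIs in WT. In Aromhum mice it had 465, 59, 361, 1252 and 4384 in the same groups. It passed the filter in these through the Aromhum mice, so their place in the count supports nothing. The share of all genes tested that were higher without overlap was 7.5%, 5.02%, 14.5%, 10.8%, 13.4%, 12.8%, 9.65%, 6.62%, 10.1% and 14% in the 10 groups, in the same order. In group 8 it was at 52.7, 9.14 and 16.3 CPM in WT and at 101, 140.3 and 74.5 CPM in Aromhum mice, with a log2 fold change of 2.02 (SE 0.65). The second place by mean CPM was group 12 with 746 ± 574 CPM over 6 mice, followed by group 27 with 733 ± 624 CPM, and these 2 did not differ beyond their spread. Group 10, the group with the gene, was itself larger in Aromhum mice, and the part of RNA from its cells in these low levels was not tested.

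*Penk* was lower in Aromhum mice in the fibroblast-like cells that hold most of it. In the large group 8 it was at 287, 299 and 341 CPM in WT and at 155, 114 and 154 CPM in Aromhum mice. The 2 ranges lie well apart. The log2 fold change was -1.09 (SE 0.14), and group 8 held 79.0% to 85.3% of the *Penk* UMIs of a mouse. In the *Apod* and *Dlk1* group 24 it was at 398, 366 and 303 CPM in WT and at 264, 169 and 244 CPM in Aromhum mice, again without overlap, with a log2 fold change of -0.67 (SE 0.19). Several marker sums of group 24 did not overlap either. Among them the 7 fibroblast-like markers were at 55504 to 70690 CPM in WT and 51249 to 53466 CPM in Aromhum mice, the 9 *Mmp3*-high fibroblast markers at 4582 to 5994 and 6401 to 7211 CPM, the 6 tenocyte markers at 114 to 131 and 235 to 305 CPM, and the 9 *Esr1*-high markers at 154 to 224 and 248 to 462 CPM. Their part in the difference was not tested. The *Gdf10* group 26 had 347, 295 and 182 CPM in WT and 185, 144 and 172 CPM in Aromhum mice, which overlap by a narrow margin. Over 6 mice groups 24, 8 and 26 stood at 291 ± 83.7, 225 ± 95.0 and 221 ± 80.4 CPM, so their order is within the spread.

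*Penk* was lower in Aromhum mice also in 2 groups that hold less of it. Tenocyte-like cells had 54.1, 97.5 and 129 CPM in WT and 19.3, 6.86 and 4.99 CPM in Aromhum mice. These values rest on 301 and 50 UMIs, and the log2 fold change was -3.24 (SE 0.46). *Esr1*-high fibroblast-like cells had 56.7, 65.7 and 59.2 CPM in WT and 22.6, 16.2 and 5.98 CPM in Aromhum mice, with a log2 fold change of -1.99 (SE 0.42). In both groups every Aromhum mouse was below every WT mouse. In tenocyte-like cells the 6 FAP (fibro-adipogenic progenitor) markers also summed to less in Aromhum mice, at 757 to 1348 against 1753 to 2198 CPM, and the 9 *Esr1*-high fibroblast markers to more, at 404 to 1059 against 125 to 276 CPM. Their part in the *Penk* difference was not tested. Deeper myelinating Schwann-like cells, with 81.8 ± 20.8 CPM in WT and 88.9 ± 29.4 CPM in Aromhum mice, overlapped. Lower without overlap were 4 of the 18 groups in which *Penk* passed the filter and higher were 0. The share of genes lower without overlap is 6.14% in group 3, 15.4% in group 8, 16.1% in group 10 and 5.31% in group 24.

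The share of group 8 cells with a *Penk* UMI was 57.9% in WT and 33.9% in Aromhum mice, and 21.1% and 9.65% after thinning. In capillary endothelial-like cells it was 1.65% in both. Over all barcodes *Penk* was at 127, 96.1 and 83.7 CPM in WT and at 64.9, 51.3 and 58.5 CPM in Aromhum mice, without overlap.

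Group 8 was divided into 11 subclusters to see which of its cells carry the peptides, a step chosen after seeing the data. In WT mice *Penk* was highest in the subcluster led by *Lars2* and *G0s2*, with 644, 472 and 610.4 CPM. Aromhum mice had 146, 204 and 217 CPM there, without overlap, and in these mice its lead was within the spread. *Penk* was lower in Aromhum mice without overlap also in subcluster 1, with *Adamts4* among its leading genes (334 ± 41.0 against 156 ± 14.8 CPM), and in the subclusters led by *Mup5*, *Clu* and *Comp* (408 ± 39.2 against 177 ± 47.5 CPM) and by the endothelial genes *Fabp4* and *Cldn5* (234 ± 30.8 against 99.8 ± 33.6 CPM). The other 3 subclusters with values from all 6 mice overlapped, at 124 ± 40.6 CPM in WT and 101 ± 17.7 CPM in Aromhum mice in the *Itgb7* and *Krtdap* subcluster 3, at 33.5 ± 22.02 and 7.496 ± 6.29 CPM in subcluster 8, and at 90.6 ± 65.8 and 25.2 ± 14.5 CPM in subcluster 9. Subcluster 2, led by *Saa3* and *Lcn2*, and subcluster 4, led by *Dmkn* and *Krt23*, came nearly all from Aromhum replicates 1 and 2. Without these subclusters, *Penk* in group 8 stood at 125, 98.3 and 155 CPM in Aromhum mice, still below every WT mouse. The share of genes lower without overlap is 9.14% in the *Lars2* and *G0s2* subcluster 5, 11.5% in subcluster 1, 8.59% in the *Mup5*, *Clu* and *Comp* subcluster 6, 9.46% in the *Fabp4* and *Cldn5* subcluster 10, and 11.7% in group 8 without subclusters 2 and 4, among genes with at least 60 UMIs.

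**Figure D3:**
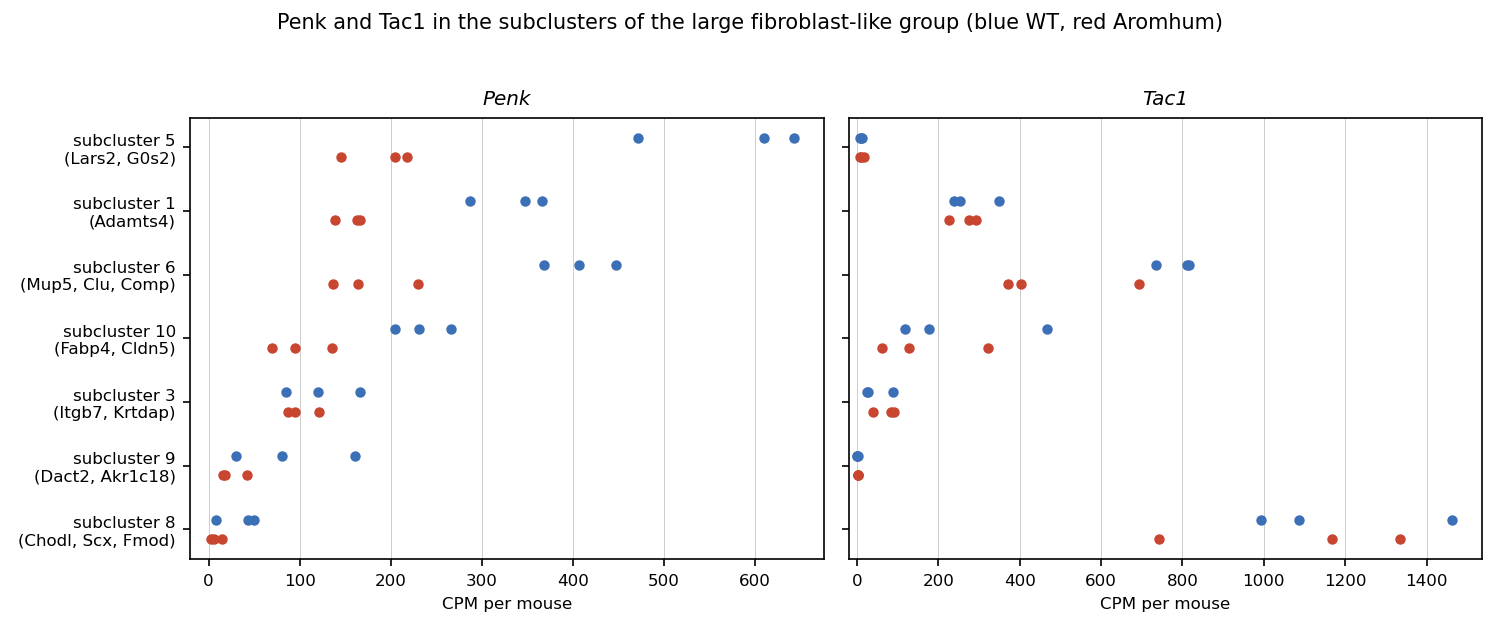
CPM of *Penk* and *Tac1* in 7 subclusters of the large fibroblast-like group, 1 point per mouse on a linear axis, WT in blue and Aromhum in red. *Penk* points of the genotypes separate in subclusters 5, 1, 6 and 10, and *Tac1* is concentrated in subclusters 8 and 6.

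*Tac1* was a gene of tenocyte-like and fibroblast-like cells. In tenocyte-like cells it was at 953, 483 and 745 CPM in WT and at 575, 209 and 791 CPM in Aromhum mice. The ranges overlap widely, with Aromhum replicate 2 lowest and WT replicate 1 highest, and the log2 fold change was -0.56 (SE 0.41). In group 10 it was at 367, 438 and 822 CPM in WT and at 172, 137 and 301 CPM in Aromhum mice. There all Aromhum mice were below all WT mice, with a log2 fold change of -1.43 (SE 0.36). The 6 tenocyte markers summed there to 1591 to 3587 CPM in WT and 611 to 1091 CPM in Aromhum mice. The 7 fibroblast-like markers summed to 39327 to 47322 and 29986 to 32246 CPM, also without overlap. Their part in the *Tac1* difference was not tested. In group 8 the *Tac1* values were 244, 350.4 and 402 CPM in WT and 170.0, 99.4 and 310.4 CPM in Aromhum mice, which overlap (log2 fold change -0.76, SE 0.36).

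Within group 8, *Tac1* lay in a few subclusters. Subcluster 8, led by *Chodl* and the tenocyte markers *Scx*, *Fmod* and *Tnmd*, had 1086, 994 and 1463 CPM in WT and 1167, 743 and 1336 CPM in Aromhum mice. Its genotypes overlapped. Subcluster 6, led by *Mup5*, *Clu*, *Comp* and *Cpxm2*, had 816, 735 and 812 CPM in WT and 403, 371 and 692 CPM in Aromhum mice, without overlap. Subcluster 1 had 280.0 ± 59.3 and 265 ± 33.4 CPM, and subclusters 5 and 9 had at most 17.1 CPM in any mouse. In WT mice *Penk* and *Tac1* thus differ in place within the same group, since subcluster 5 is the highest for *Penk* and among the lowest for *Tac1*. In Aromhum mice subclusters 5 and 6 had 189 ± 38.1 and 177 ± 47.5 CPM of *Penk*, within the spread. In group 8, 12.04% of WT cells with *Penk* and 12.7% of those without it had a *Tac1* UMI after thinning, and in Aromhum mice 8.35% and 9.26%.

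The share of group 10 cells with a *Tac1* UMI was 49.2% in WT and 49.1% in Aromhum mice, and 23.3% and 13.2% after thinning. Aromhum cells of this group were the deeper ones, and the thinned shares follow the CPM. In capillary endothelial-like cells the share was 1.33% and 2.16%. Among the 17 groups in which *Tac1* passed the filter, 1 was higher in Aromhum mice without overlap and 1 lower, where 18.1% of all genes were higher in group 12 and 16.1% lower in group 10. The higher was group 12, at 0, 16.4 and 12.3 CPM in WT and 91.6, 75.6 and 185 CPM in Aromhum mice. It rests on 10 and 113 UMIs and gave a log2 fold change of 3.30. *Tac1* passed the filter there through the Aromhum mice, so nothing is read from this value. Over all barcodes *Tac1* overlapped, at 135 ± 13.8 CPM in WT and 126 ± 54.6 CPM in Aromhum mice.

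*Gal*, the galanin precursor, was concentrated in muscle stem cell-like and myoblast-like cells and was lower there in Aromhum mice. Its level was 1918, 5945 and 3028 CPM in WT and 1125, 580.2 and 1077 CPM in Aromhum mice. WT replicate 2 was the highest and WT replicate 1 the lowest of the WT mice, and no Aromhum mouse reached it. The log2 fold change was -2.07 (SE 0.42), or 4.204-fold lower, and -2.92 without barcodes over 5% mitochondrial or under 1000 UMIs. The *Apod* and *Dlk1* fibroblast-like group came second, with 320.3, 291 and 182 CPM in WT and 337, 14.5 and 62.0 CPM in Aromhum mice, which overlap because Aromhum replicate 1 was the highest of all 6. Of the 15 groups in which *Gal* passed the filter, 1 was lower without overlap, group 11, and 0 were higher. In group 11, 9.51% of all genes tested were lower without overlap.

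*Gal* was unevenly spread over the cells of group 11. The median cell had 1, 8 and 5 UMIs in WT mice and 0, 0 and 1 in Aromhum mice, and the highest had 300. The top 10% of cells held 46.8% to 76.0% of the *Gal* of a mouse. The share of cells with a UMI was 70.2% in WT and 46.7% in Aromhum mice, and 53.5% and 27.3% after thinning. In capillary endothelial-like cells it was 5.79% and 3.21%. Over all barcodes *Gal* was at 75.8, 348 and 135 CPM in WT and at 23.6, 20.9 and 31.2 CPM in Aromhum mice, without overlap. Group 11 made up 5.70% ± 0.95 of WT and 3.59% ± 0.67 of Aromhum cells.

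*Npy* was the least abundant, with 3054 UMIs in all. In group 11 it was at 88.5, 47.3 and 99.9 CPM in WT and at 68.5, 49.1 and 156 CPM in Aromhum mice. Here the genotypes overlapped, with a log2 fold change of 0.15 (SE 0.43). It was -0.57 without Aromhum replicate 3 and 0.50 without Aromhum replicate 2. In group 10 it was at 14.6, 43.3 and 74.8 CPM in WT and at 2.86, 1.27 and 9.93 CPM in Aromhum mice, without overlap and with a log2 fold change of -3.28 (SE 0.79), which was -4.33 without Aromhum replicate 3 and -2.66 without WT replicate 3. In group 8 the levels were 13.9, 4.28 and 8.98 CPM in WT and 1.19, 3.50 and 1.86 CPM in Aromhum mice, also without overlap. Without subclusters 2 and 4 of group 8 the genotypes overlapped, since Aromhum replicate 2 then had 6.08 CPM against 4.29 CPM in WT replicate 2. In the *Mup5*, *Clu* and *Comp* subcluster *Npy* was at 22.1, 13.98 and 22.1 CPM in WT and at 2.62, 3.81 and 5.67 CPM in Aromhum mice. It was lower without overlap also in subcluster 5 (1.27 to 2.01 CPM against 0 in each Aromhum mouse) and subcluster 10 (2.14 to 22.6 against 0 to 1.26 CPM), and it overlapped in subclusters 1, 3, 8 and 9. The levels in subclusters 5 and 10 are near the floor, with 36 to 81 cells per mouse in subcluster 10, and nothing is read from them. Lower without overlap were 2 of the 3 groups in which *Npy* passed the filter, and higher were 0. The share of genes lower without overlap is 16.1% in group 10 and 15.4% in group 8. Among genes with at least 60 UMIs it is 9.14% in subcluster 5, 8.59% in subcluster 6 and 9.46% in subcluster 10. A *Npy* UMI was seen in 9.28% of WT and 8.93% of Aromhum cells of group 11, and in 0.273% and 0.149% of capillary endothelial-like cells.

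*Grp* marked the myelinating Schwann-like cells. In group 7 it was at 1752, 1821 and 1971 CPM in WT and at 1479, 1245 and 1719.6 CPM in Aromhum mice. The ranges are close to each other and do not overlap, and the log2 fold change was -0.36 (SE 0.15). The 7 fibroblast-like markers summed there to 2492 to 5706 CPM in WT and 7821 to 11125 CPM in Aromhum mice, also without overlap, and their part in the difference was not tested. In the deeper group 15 it was at 1613, 1718 and 1556 CPM in WT and at 1309, 615 and 1465 CPM in Aromhum mice, again without overlap, where Aromhum replicate 2 stood lowest (log2 fold change -0.52, SE 0.22). By mean CPM group 7 was ahead of group 15, by mean log level of the cells group 15 was ahead, and over 6 mice they stood at 1665 ± 261 and 1379 ± 399 CPM. The third place was the glial-like group 4 with 38.1 ± 17.9 CPM.

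A *Grp* UMI was seen in 46.0% of WT and 40.1% of Aromhum cells of group 7, in 86.5% and 71.4% of group 15, and in 1.54% and 1.40% of capillary endothelial-like cells. WT cells were the deeper ones, with medians of 2610 against 1941.5 UMIs in group 7 and 11222.5 against 8672 UMIs in group 15. After thinning the shares were 43.8% and 37.4% in group 7 and 60.8% and 50.9% in group 15. In group 10 there were 68 *Grp* UMIs in WT and 3 in Aromhum mice, lower without overlap. The gene passed the filter there through the WT mice, so nothing is read from this trace. Over all barcodes *Grp* was lower in Aromhum mice, at 48.1 ± 22.5 against 11.7 ± 7.27 CPM, while group 7 made up 3.23% ± 1.24 of WT and 1.29% ± 0.423 of Aromhum cells. The share of genes lower without overlap is 6.85% in group 7, 6.68% in group 15 and 16.1% in group 10.

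Read group by group, the *Esr1*-high fibroblast-like cells of Aromhum mice had more *Erfe* and less *Penk*, *Tac1* and *Npy*, while *Pnoc* and *Gal* overlapped. *Grp* was also lower there, but on 68 UMIs in WT and 3 in Aromhum mice. The muscle stem cell-like and myoblast-like cells had less *Gal* and less *Erfe*, while *Npy* and *Pnoc* overlapped. The large fibroblast-like group had less *Penk* and *Npy* and more *Pnoc* and *Erfe*, while *Gal* and *Tac1* overlapped. Without subclusters 2 and 4 *Npy* overlapped there too. *Erfe* was near the floor in this group, on 127 UMIs in WT and 677 in Aromhum mice. It was higher without overlap in its subclusters 1 and 6 and overlapped in subclusters 3, 5, 8, 9 and 10. The shares of all genes higher and lower without overlap are 19.9% and 16.1% in group 10, 17.6% and 9.51% in group 11, and 13.4% and 15.4% in group 8. Marker levels of related cells differed between the genotypes in the same groups. In group 10 the 6 tenocyte progenitor markers summed to 3111 to 4721 CPM in WT and 718 to 1696 CPM in Aromhum mice, the 6 FAP markers to 2026 to 2697 and 572 to 1017 CPM, and the 9 *Esr1*-high fibroblast markers to 1980.3 to 2424 and 5143 to 7111 CPM. None of these markers was at 0 there. In group 11 the 7 fibroblast-like markers summed to 597 to 2166 CPM in WT and 2521 to 4944 CPM in Aromhum mice, and the 7 muscle stem cell markers to 3146 to 4907 and 2317 to 3117 CPM. In group 8 the 9 *Esr1*-high fibroblast markers summed to 168 to 196 CPM in WT and 240 to 653 CPM in Aromhum mice, the 9 *Mmp3*-high markers to 1767 to 2782 and 2866 to 10963 CPM, and the 6 endothelial markers to 91.5 to 202 and 45.7 to 59.6 CPM. The 6 dissociation and stress genes summed without overlap to less in Aromhum mice in 4 groups, at 10648 to 13545 against 3863 to 6486 CPM in group 10, 3489 to 4589 against 1698 to 2528 CPM in group 11, 5924 to 7325 against 3007 to 5170 CPM in group 8 and 9539 to 12143 against 6067 to 7245 CPM in group 3. The part of these shifts in the peptide differences was not tested.

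**Figure D4:**
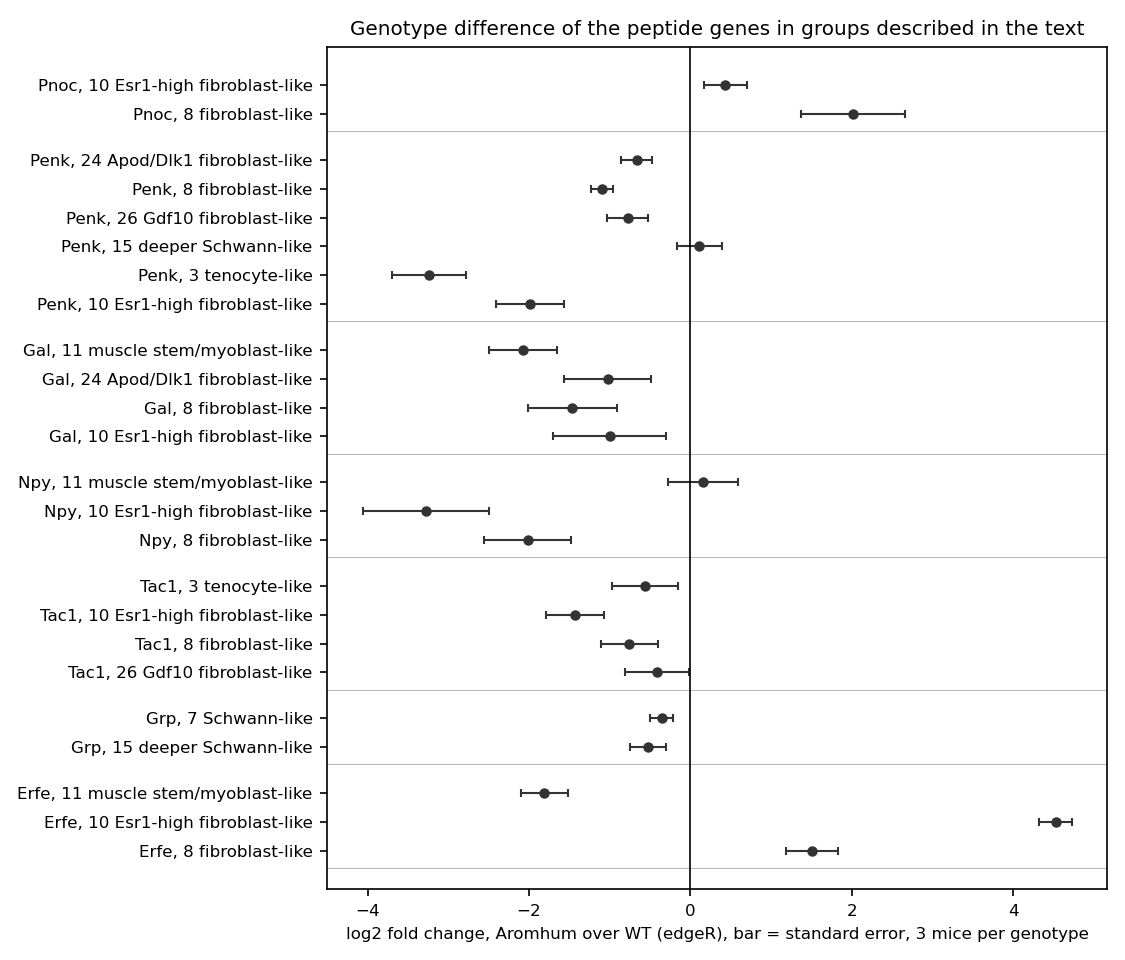
Log2 fold change of Aromhum over WT for each peptide gene in groups described in the text, with the standard error as a bar, 3 mice per genotype. *Erfe* stands at 4.53 in group 10 and at -1.81 in group 11, and of the 6 *Penk* values shown the one in group 15, at 0.11, is above 0.

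Few members followed each other across the groups. Over 162 sums of mouse and group, which share libraries, the correlation of log2(CPM + 1) between members ran from -0.21 for *Pnoc* and *Gal* to 0.53 for *Pnoc* and *Erfe*. The genes most like each member are given as a description. They were *Ren1* (Pearson r 0.89), *Rxfp2* (0.72) and *Pgr* (0.71) for *Pnoc*. They were *Gsn* (0.82), *Apod* (0.79) and *Smoc2* (0.77) for *Penk*, and *Asb5* (0.59), *P2ry14* (0.57) and *Chodl* (0.52) for *Gal*. *Npy* was nearest to *Clcf1* (0.57) and *Msc* (0.55). *Tac1* was nearest to *Ssc5d* (0.76), *Serpinf1* (0.75) and *Angptl1* (0.75). *Grp* was nearest to *Cldn19* (0.88), *Gldn* (0.88) and *Slc36a2* (0.86), the first of them a tight junction gene of myelin. *Erfe* was nearest to *Chrdl2* (0.80), an inhibitor of BMPs, *Wnt4* (0.67) and *Pmepa1* (0.64).

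The receptors were tested across all genes with edgeR's quasi-likelihood test and Benjamini-Hochberg adjustment in each of the 27 groups. The list held 19 receptor genes for the families of the neuropeptides and none for erythroferrone. Of these 7 were measured and 12 were not among the 16494 genes. The nociceptin receptor gene *Oprl1* and the classical opioid receptor genes were among those missing. *Npy1r*, a neuropeptide Y receptor, was highest in smooth muscle-like cells, at 183 ± 39.8 CPM in group 18 and 108 ± 19.1 CPM in group 17. *Galr2*, a galanin receptor, was at 19.4 ± 8.42 CPM in tenocyte-like cells and at 9.69 ± 8.52 CPM in group 26, within the spread. *Tacr1*, the substance P receptor, was at 27.3 ± 31.5 CPM in venous endothelial-like cells (group 16) and at 21.1 ± 28.3 CPM in the small endothelial-like group 13, and these did not differ beyond their spread over the 6 mice of both genotypes. *Ackr3*, a scavenger receptor that also takes up opioid peptides, was at 578 ± 123 CPM in group 8 and at 474 ± 151 CPM in group 10, also within the spread.

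Over the 27 groups 2 of 67 receptor results passed the test, and both were higher in Aromhum mice. *Ackr3* in group 10 was at 324, 446 and 296 CPM in WT and at 656, 636 and 488 CPM in Aromhum mice, with no overlap. Its log2 fold change was 0.75 (SE 0.20, adjusted p = 0.0445 by edgeR), and it lost the call when any mouse but Aromhum replicate 3 was left out. 13.9% of the 12188 genes tested in group 10 were called. *Tacr1* in the unnamed venous endothelial group 6 rested on 6 UMIs in WT and 58 in Aromhum mice. Its log2 fold change was 3.95 (SE 0.75), where 2.33% of 6704 genes were called. The gene passed the filter there on low counts through the Aromhum mice, so its call had to follow and supports nothing further.

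Genes that cut, amidate or degrade peptides were all measured, 30 of 30. Of 439 results over the 27 groups 5 were higher and 5 lower in Aromhum mice, with 2 of the higher and all 5 of the lower in group 10. Over all genes 1.98% of the 199372 results in these groups were called, 1.15% higher and 0.838% lower, and in group 10 6.42% were higher and 7.44% lower. There *Dpp4*, which removes dipeptides from neuropeptide Y and other peptides, fell from 36.6 ± 5.95 to 12.9 ± 0.519 CPM (log2 fold change -1.50, SE 0.15, adjusted p = 0.00316 by edgeR). *Ace* (log2 fold change -1.39), *Cpm* (-1.48), *Anpep* (-0.76) and *Ece1* (-0.50), all cell surface peptidases, also fell. With the study's limits on cells, which leave 14 cells of group 10 in the mouse with fewest, *Ace* (0.060) and *Ece1* (0.40) turned in direction. *Prep* rose by 0.73. *Ecel1*, a relative of the endothelin-converting enzymes, had 0 UMIs in WT and 468 in Aromhum mice, at least 25.3-fold higher against a floor of 3 counts over the group. It passed the filter on low counts through the Aromhum mice, so its call had to follow and supports nothing further. *Dpp4* kept the call whichever mouse was left out, but with the study's limits on cells neither it nor any other gene of this list was called in group 10. The other 5 lost it without WT replicate 2 or 3 or Aromhum replicate 1 or 2, and *Prep*, *Ace* and *Ece1* also without WT replicate 1. The median log2 fold change of the 29 tested genes of this list in group 10 was -0.03, and that of all genes 0.00. *Pcsk6* rose in groups 2 (0.92) and 29 (1.70) and *Pcsk5* in group 18 (1.78), where 2.02%, 2.06% and 2.16% of genes were called. The convertases *Pcsk1* and *Pcsk2*, which process most neuropeptide precursors, were low, at most 16.9 ± 7.08 CPM in group 18 and 6.36 ± 3.02 CPM in group 10.

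BMP ligands and signalling genes were tested because erythroferrone binds BMPs. Of 23 genes 22 were measured, and of 363 results over the 27 groups 1 was higher and 13 were lower in Aromhum mice, where the shares over all results are 1.15% and 0.838%. In group 10, with 6.42% of genes higher and 7.44% lower, *Bmp4*, a ligand, fell from 66.4 ± 13.8 to 13.3 ± 6.48 CPM (log2 fold change -2.34, SE 0.30, adjusted p = 0.00621 by edgeR). *Smad6* (-1.39) and *Smad7* (-0.69), inhibitors that BMP signals induce, and *Id3* (-0.99), a target, fell too. The list's median log2 fold change in group 10 was -0.38. In group 11 *Id2* fell by 2.45 (1.73 without WT replicate 2) and *Bmp4* by 1.13 on the log2 scale, and *Bmp6* rose by 0.73. 3.52% of the 8435 genes tested in group 11 were called. In group 8 *Id1* (-1.76), *Acvr2b* (-1.31) and *Id3* (-0.74) fell, where 2.81% of 13311 genes were called and the list's median was -0.17. *Bmp4* fell also in group 6 (-1.23), *Id1* in groups 18 (-0.97) and 19 (-1.19) and *Id3* in group 29 (-0.81), where no mouse was left out in turn. Of the genes in groups 8, 10 and 11, only *Bmp4* in group 10 kept the call whichever mouse was left out. *Smad6* lost it without Aromhum replicate 1, and *Id3* in group 10 without WT replicate 3 or Aromhum replicate 1 or 2. *Smad7*, the 3 genes of group 8 and the 3 of group 11 lost it without WT replicate 3, Aromhum replicate 1 or Aromhum replicate 2, among others. When any mouse other than Aromhum replicate 3 was left out, group 8 had at most 3 called genes of any kind.

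Of 82 other genes for peptide precursors, granins and secreted relatives of *Erfe*, 45 were measured. They gave 20 higher and 11 lower results of 299 over the 27 groups, in 16 of those groups, beside 1.15% higher and 0.838% lower over all results. *Nppc*, the C-type natriuretic peptide gene, rose in group 10 from 385, 329.6 and 471 CPM in WT to 2740, 2379.6 and 1481 CPM in Aromhum mice (log2 fold change 2.48, SE 0.28, adjusted p = 0.00398 by edgeR). It was 3.43 with the study's limits on cells. *Nppc* is also one of the markers used to name this group. *Metrnl* rose there by 1.16 on the log2 scale. Of the C1q/TNF relatives of *Erfe* in group 10, *C1qtnf7* (-1.79), *C1qtnf2* (-1.73), *C1qtnf1* (-0.79) and *C1qtnf9* (-2.12) fell. The list's median in group 10 was -0.72 over 24 tested genes. In group 11 *Nppc* fell from 182 ± 47.8 to 50.5 ± 11.8 CPM (log2 fold change -1.95, and -3.09 with the study's limits), while *C1qtnf3* (1.23, and 1.82 without barcodes over 5% mitochondrial or under 1000 UMIs) and *C1qtnf6* (1.93) rose. *C1qtnf6* also rose in group 3 (1.45), where 0.457% of 7437 genes were called, and in group 8 (1.95). In group 8 *Nppc* rose by 2.77 (1.14 with the study's limits) and *C1qtnf9* fell by 2.16 on the log2 scale. In group 7 *Nucb2* rose by 1.79 and *C1qtnf9* fell by 3.18, where 2.01% of 6162 genes were called. *Nucb2* in group 7 and *C1qtnf6* in group 11 had 29 and 21 UMIs in WT mice. They passed the filter there on low counts through the Aromhum mice, so these 2 calls support nothing further. *Nppc* rose also in groups 12, 15, 18, 22 and 29, and *C1qtnf6* in groups 2, 12, 17, 19 and 27, by 1.40 to 5.55 on the log2 scale. In WT mice *Nppc* had 7, 62, 9, 9 and 24 UMIs in these groups, in order, and *C1qtnf6* 339, 3, 29, 9 and 12. Those with 12 or fewer WT UMIs passed the filter on low counts through the Aromhum mice, so their calls support nothing further. As with *Pnoc*, the part of RNA from the cells of group 10, which was larger in Aromhum mice, in the low *Nppc* levels outside it was not tested. In groups 12, 15, 17, 19, 22 and 27, 7.33%, 0.433%, 1.11%, 0.619%, 0.584% and 2.18% of genes were called. *Adm*, the adrenomedullin gene, fell by 1.41 in group 24, where 0.367% of 4630 genes were called, and by 0.64 in group 2. *C1qtnf9* fell also in groups 18 (-2.94) and 27 (-3.66), *Metrnl* rose in group 18 (0.91), and *Edn1*, the endothelin gene, rose in group 6 (1.98). In groups 7, 18 and 27 *C1qtnf9* had 4, 6 and 7 UMIs in Aromhum mice. It passed the filter there through the WT mice, so those calls support nothing further. Among the results of this list in groups 3, 7, 8, 10, 11 and 24, *Nppc* in group 10 kept the call whichever mouse was left out. *C1qtnf7* lost it without Aromhum replicate 1, and every other one lost it without WT replicate 2 or WT replicate 3.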

How the data were processed

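For 6 mice, single-cell libraries were made by 10x Genomics 3' chemistry. Raw UMI counts per gene and barcode were deposited by the authors in 1 table, made with Cell Ranger 3.0.2 on mm10 per the submitters' notes, with the human *CYP19A1* gene added. Every barcode was kept, since barcodes past the study's limits (200 to 2500 genes, at least 1000 UMIs, at most 5% mitochondrial UMIs) are in the table. The 30 cell groups follow the repeated order of samples among the columns, and their names come from marker lists. The 7 genes, the lists and the tests were chosen with earlier results of these data known.

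Counts were summed per mouse and group and compared between genotypes with edgeR 4.0.16 (R 4.3.3, TMM, filterByExpr, quasi-likelihood test, Benjamini-Hochberg threshold 0.05 over all genes tested), 1 fit for each of 27 groups with at least 20 cells in every mouse. On simulated counts with 200 changed genes the script was tested before use. The rule named the peptide genes in every group (given as counts where low), list genes where called, at most 8 per list and group in order of p, and for each peptide gene the 3 most correlated genes with a mean CPM of at least 5, except for 1 gene that is not reported here. Cells were thinned to 1000 UMIs for shares, leaving out 4411 shallower barcodes. Doublets were marked as the 5% of barcodes with the highest Scrublet score in each library, because the automatic threshold marked none in 2 libraries, and were kept in the main values. Group 8 was divided with Leiden (scanpy 1.11.5, resolution 0.4, seed 1) without the 7 genes among 2000 variable genes, 30 components and 20 neighbors. Replicate numbers were not used as pairs. Precision is limited by 3 mice per genotype.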

Additional observations from a re-analysis of the deposited data

Results flagged for a closer look

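For a pair of peptide genes every Aromhum mouse lay above every WT mouse in 1 cell group and below in another, and the difference between the groups was not tested. *Erfe* had log2 fold changes of 4.53 in group 10, 2.01 in group 5, 1.51 in group 8, 7.51 in group 12 and 2.00 in group 29, against -1.81 in group 11. The value for group 12 depends on the prior count, since WT mice had 0 UMIs there. *Tac1* had log2 fold changes of 3.30 in group 12, on 10 and 113 UMIs, and -1.43 in group 10. Both genes passed the filter in group 12 through the Aromhum mice, so their values there support nothing. For *Tac1* no opposite direction is therefore read. *Nppc* rose in group 10 and fell in group 11, and the difference itself, added after seeing the data, was 4.39 on the log2 scale (SE 0.40, edgeR with the mouse as a block). It was computed for this gene because of its calls in those groups, so no p is given.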

How the results depend on the processing

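The log2 fold changes of the peptide genes kept within 1 SD of the mice in 136 of 140 alternative values. Many of these values leave out 1 mouse. Such a value could hardly move by more than this SD, since the SD comes from the same mice. The count is therefore no measure of robustness. With the study's limits on cells *Penk* in group 24 was -0.98 and *Erfe* in group 10 was 2.93, and the mean *Pnoc* level in group 10 was 5996 CPM. Without barcodes over 5% mitochondrial or under 1000 UMIs *Gal* in group 11 was -2.92. The sign changed for *Npy* in group 11, in 4 of 14 settings (-0.57 to 0.50 as single mice were left out), and for *Erfe* over all barcodes, -0.98 without group 10.

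Counts of called genes moved more. In groups 3, 7, 8, 10, 11 and 24 they were 34, 124, 374, 1690, 297 and 17. With the study's limits they were 0 in group 3 (274 at an unadjusted p under 0.05), 0 in group 8 (1671), 73 in group 10, 48 in group 11 and 4 in group 24. Without barcodes over 5% mitochondrial or under 1000 UMIs they were 22, 100 and 11 in groups 3, 11 and 24. With no filter on low counts they were 282, 452, 148, 736 and 94 in groups 3, 7, 8, 11 and 24. Without doublets they were 14 in group 7 and 134 in group 8. DESeq2 gave 136 in group 3 and 1673 in group 8. Leaving out 1 mouse gave 2 to 240, 19 to 235, 0 to 3224, 207 to 2629, 0 to 953 and 11 to 49, with the highest count without Aromhum replicate 3 in 5 of the 6 groups and without WT replicate 1 in group 7. In group 8 it was at most 3 when any of the other 5 mice was left out.

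Over these groups the receptor list had 1 call, and 5 with DESeq2, 4 with no filter, 0 without mitochondrial or shallow barcodes, 2 without doublets and 0 to 8 without 1 mouse. The processing list had 7 calls, and 11 with DESeq2, 11 with no filter, 0 with the study's limits and 2 to 19 without 1 mouse. The BMP list had 10, and 22, 17, 2 and 1 to 21. The other peptides had 16, and 26 with no filter, 3 with the study's limits, 9 without mitochondrial or shallow barcodes and 3 to 41 without 1 mouse. All 4 lists had their most calls without Aromhum replicate 3. With the study's limits *Ace* and *Ece1* in group 10 turned to 0.060 and 0.40. The causes were not tested.

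The replicate number as a block gave 385 calls in group 3, 754 in group 11, 2 receptor, 13 processing and 16 BMP calls, and kept the counts within 1.5 times in groups 7, 8, 10 and 24 and for the other peptides. The labels do not say that a number marks a date, and same-numbered mice did not all correlate above 0.1 (r from -0.165 to 0.255 over 6 groups), so no pairs were assumed. In groups 3, 11 and 24 every mouse correlated best with its own number. Group 7 was not run within the 2 barcode limits, since a mouse had too few cells, and the other 21 groups had no alternatives run.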
